A study of Mus musculus with 16 samples.

Results

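miR-22-3p, the 3′ arm of the hairpin encoded by Mir22, was followed across 16 arrays of RAW264.7 cells, a macrophage-like mouse cell line. It is 1 of 1247 mouse miRNAs on the array, and its rows were taken by the name mmu-miR-22-3p in each scanner file. It was put forward because its difference between Th2-grown and medium-grown cells had already been seen, so that difference is described here and not tested, while the response to interleukin-33 (IL-33) is tested. Every array came from the same line and was loaded with 100 ng of labelled total RNA. Media cells had 48 h in complete medium and no cytokine. Th2 cells had the same time with interleukin-4 and interleukin-13 (the Th2 cytokines) at 10 ng/ml. All cells were then washed, and RNA was taken 4 h later. Media_IL33 and Th2_IL33 cells were grown like Media and Th2 and had mouse IL-33 at 20 ng/ml in those 4 h, while Media and Th2 cells had none. Each group held 4 arrays, 1 from each of 4 independent experiments, so that arrays of the same number belong to the same experiment. All groups are 1 cell line in culture, and no primary macrophage was measured.

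MicroRNAs are short RNAs that guide Argonaute proteins to messenger RNAs, mostly by pairing through the seed near their 5′ end, and thereby lower the output of those messages. miR-22-3p is a conserved miRNA found in many tissues. Among its known targets are Tet2, an enzyme that oxidises 5-methylcytosine, and the deacetylases Hdac4 and Sirt1. It is abundant in heart and skeletal muscle and is also made in blood cells. IL-4 and IL-13 act on macrophages through STAT6 and drive alternative activation, whereas IL-33 signals through its receptor ST2 and MyD88 to NF-kB.

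The RefSeq table places the hairpin at chr11:75463716-75463810 on the plus strand of GRCm38.p6, inside Mir22hg, a long noncoding RNA gene whose neighbours are Wdr81 and Tlcd2. The mature strands and the hairpin are shown because the array probes read only part of them. In the mature strands the capitals mark the seed (bases 2 to 8), and in the hairpin they mark miR-22-3p.
miR-22-3p: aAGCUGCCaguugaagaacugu
miR-22-5p: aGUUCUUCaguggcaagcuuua
Mir22 hairpin: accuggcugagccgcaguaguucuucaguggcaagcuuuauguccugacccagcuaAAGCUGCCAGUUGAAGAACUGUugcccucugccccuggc
Of 1679 mature mouse miRNAs in that table, miR-22-3p was the only 1 with the seed AGCUGCC, so no seed relative was available for comparison.

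The array carried 2 probes for miR-22-3p, each printed as 20 spots. Their sequences are shown because they define which molecules give the signal.
A_54_P1309: acagttcttcaactggca
A_54_P1310: acagttcttcaactggcag
The first, of 18 bases, pairs with bases 5 to 22 of the mature strand, and the second, of 19 bases, with bases 4 to 22. Neither covers the 5′ end, so forms of miR-22-3p with a shifted 5′ end are not told apart. Each probe matches in full just 1 mature mouse miRNA of the RefSeq table. A_54_P1309 was well above background on 18 to 20 of its spots and A_54_P1310 on all 20 on every array, and 0 spots were saturated. The coefficient of variation over the spots of an array had a median of 11.7% for A_54_P1309 and 8.85% for A_54_P1310. In all, 18 and 11 of their 320 spots over the 16 arrays were marked as outliers and left out.

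The values below are relative signals: the background-subtracted intensities of both probes were summed and expressed as a multiple of the 75th percentile of the array. That percentile was taken over the 178 miRNAs that all arrays detected, and a relative signal of 1 equals it. It was 427 to 654 intensity units, and 206 to 256 miRNAs were detected per array. By their median correlation with the arrays of their own group, 4 arrays stand apart, Media 3 (0.874), Media 1 and Media 2 (0.920 each) and Th2_IL33 2 (0.945), while the other 12 had 0.968 to 0.991. Media 2 also had the most outlier spots (3929 of 49880). Results are given without Media 3, Media 1 and Th2_IL33 2 ("without 3 arrays"), a set taken over from earlier work on these data, and without all 4. The latter leaves Media 4 alone in its group, so its spread is assumed to be that of the other groups. The myeloid miRNAs miR-223-3p, miR-142a-3p and miR-142a-5p were detected on all 16 arrays, and their summed relative signal was 1.21 to 1.74 in Media, 1.37 to 2.15 in Th2, 1.21 to 1.47 in Media_IL33 and 1.36 to 2.19 in Th2_IL33. Of 10 markers of liver, muscle, neurons, epithelium, red cells, endothelium and lymphocytes, 0 were detected on any array, miR-122-5p, miR-124-3p and miR-451a among them.

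miR-22-3p was detected on all 16 arrays, and its level was lowest in Media and highest in Th2_IL33. In Media the relative signals in experiments 1 to 4 were 1.13, 0.917, 0.731 and 1.31, a mean of 1.02 ± 0.252 (SD, n = 4). In Th2 they were 1.64, 1.67, 1.40 and 1.70, a mean of 1.60 ± 0.137. The lowest Th2 array lay above the highest Media array, and no array of either group overlapped the other.
In Media_IL33 the relative signals were 1.21, 1.22, 1.24 and 1.17, a mean of 1.21 ± 0.0318. In Th2_IL33 they were 1.93, 2.15, 1.57 and 2.24, a mean of 1.97 ± 0.298. Again each Th2-grown array lay above each medium-grown one. By group mean the order was Media, Media_IL33, Th2, Th2_IL33. Media overlapped Media_IL33 and Th2 overlapped Th2_IL33, while the highest Media_IL33 array (1.24) lay below the lowest Th2 array (1.40). The share of all tested miRNAs with a gap between Media_IL33 and Th2 was not computed. Before scaling these groups overlapped (703 to 792 intensity units in Media_IL33 and 776 to 889 in Th2). Experiment 3 gave the lowest array in 3 groups and the highest in Media_IL33. In bulk RNA, a change in every cell and a change in the share of cells that hold the miRNA cannot be told apart.

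**Figure D1:**
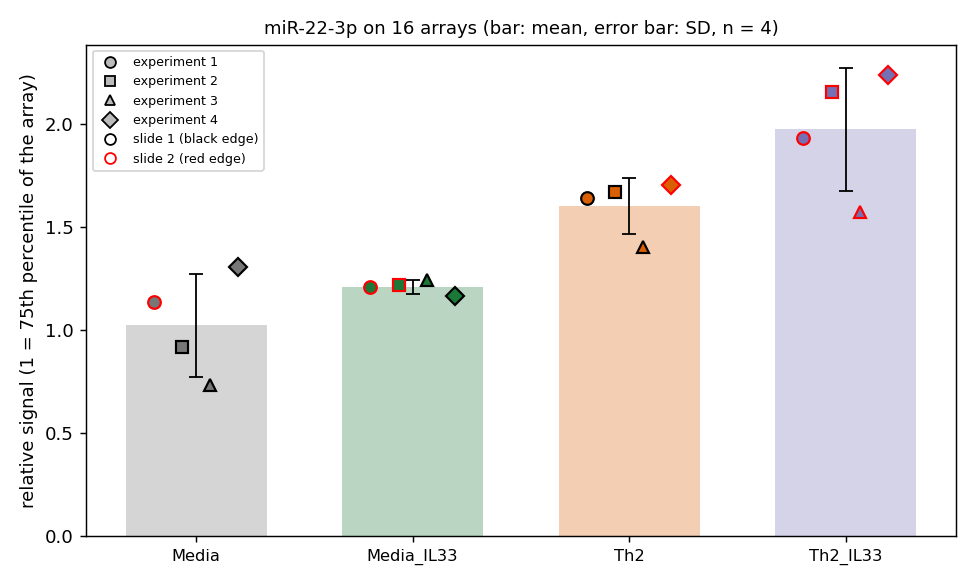
Relative signal of miR-22-3p (y axis, 1 is the 75th percentile of the array) in the 4 groups (x axis), with 1 point per array, symbols for the experiment, edge colour for the slide, bars for the mean and error bars for the SD (n = 4). The 8 arrays of Th2-grown cells sit between 1.40 and 2.24, above the 8 arrays of medium-grown cells, which sit between 0.731 and 1.31. The share of all tested miRNAs with these 8 and 8 arrays apart was not computed.

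Growth in Th2 cytokines without IL-33 went with a 1.60-fold higher miR-22-3p level (log2 difference 0.68 ± 0.16 SE from the model). By experiment the log2 differences between Th2 and Media were 0.53, 0.86, 0.94 and 0.38, so miR-22-3p was higher in 4 of 4 experiments, by 1.30-fold in experiment 4 to 1.92-fold in experiment 3. Over all 231 tested miRNAs the median log2 difference was 0.063. Past the limma threshold (adjusted p under 0.05) in this comparison were 9.52% of them, and 9.09% had every Th2 array above every Media array. Nothing is read from these shares, since miR-22-3p was chosen on this difference. The size depends on single Media arrays: it was 0.53 without Media 3 and 0.81 without Media 4. Without 3 arrays it was 0.55, and without all 4, against Media 4 alone, it was 0.29 ± 0.17 SE.

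With IL-33 present, the difference was of the same order. Th2_IL33 was 1.62-fold above Media_IL33 (log2 difference 0.69 ± 0.16 SE), and by experiment the log2 differences were 0.67, 0.82, 0.34 and 0.94. miR-22-3p was again higher in 4 of 4 experiments, and experiment 3, which had the widest gap without IL-33, had the narrowest with it. Here 9.52% of the tested miRNAs passed the limma threshold, and for 14.3% every Th2_IL33 array lay above every Media_IL33 array. The log2 difference was 0.65 without 3 arrays and also without all 4. These values are the same by design, since Th2_IL33 2 is the only array of this comparison that either removal takes out.

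The arrays lay on 2 slides, and Th2_IL33 was on slide 2 alone. Within slide 1 (3 arrays each) the log2 difference between Th2 and Media was 0.71, and between the 1 array of each on slide 2 it was 0.59. Between Th2_IL33 (4 arrays) and Media_IL33 (2 arrays) within slide 2 it was 0.69.

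**Figure D2:**
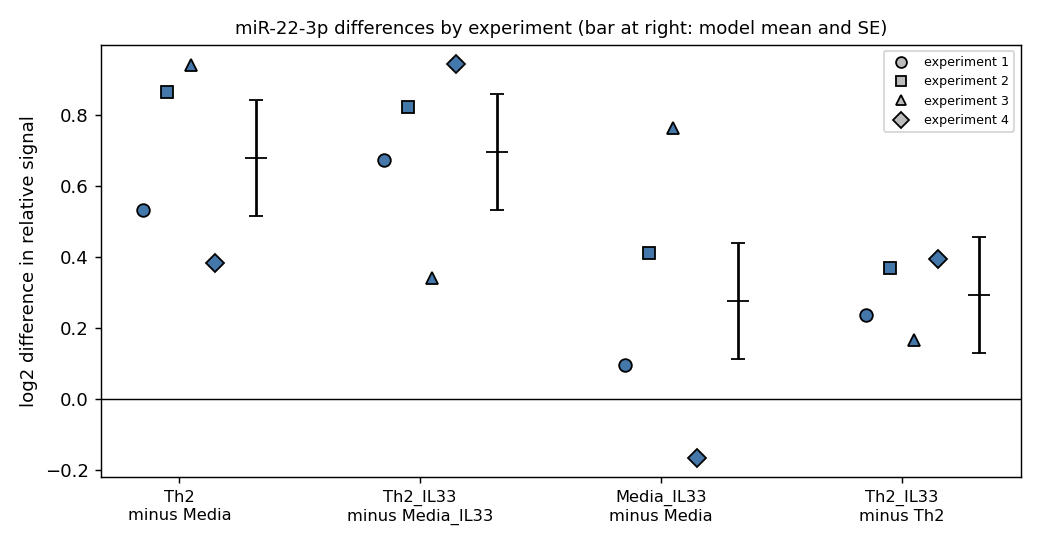
Log2 differences in miR-22-3p relative signal (y axis) for 4 comparisons (x axis), with 1 point per experiment and, at the right of each set, the model mean with its SE. All 8 Th2 differences lie above 0, from 0.34 to 0.94, whereas the IL-33 differences reach from -0.17 to 0.76.

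IL-33 was given for 4 h after growth, and the question here was whether the level of miR-22-3p differed after it. It did not pass the test in either growth condition. In medium-grown cells the log2 difference between Media_IL33 and Media was 0.27 ± 0.16 SE (95% interval -0.07 to 0.62, limma adjusted p = 1), where 1.73% of tested miRNAs passed. By experiment it was 0.09, 0.41, 0.76 and -0.17, so it was higher in 3 of 4 experiments and the groups overlapped, where 2.16% of tested miRNAs had every Media_IL33 array above every Media array. An exact permutation test of miR-22-3p alone gave a two-sided p of 0.257 (0.257 adjusted over both tests), where 70 splits allow no p under 0.0286. Kept within experiments, an exact two-sided sign-flip permutation test gave p = 0.375, where 16 sign patterns allow no p under 0.125. The value leaned on 1 array, being 0.12 without Media 3. It was 0.33 within slide 1 (2 arrays with 3), 0.10 within slide 2 (2 with 1) and 0.14 without 3 arrays. Without all 4, against Media 4 alone, its sign turned (-0.11, limma adjusted p = 0.726).

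In Th2-grown cells the log2 difference between Th2_IL33 and Th2 was 0.29 ± 0.16 SE (95% interval -0.06 to 0.64, limma adjusted p = 1), where again 1.73% of tested miRNAs passed. By experiment it was 0.24, 0.37, 0.16 and 0.39, higher in 4 of 4 and more even than in medium-grown cells, while the groups still overlapped through Th2_IL33 3. For 3.9% of tested miRNAs every Th2_IL33 array lay above every Th2 array. The exact two-sided permutation p over arrays was 0.114 (0.229 adjusted over both tests). Within experiments the exact sign-flip p was 0.125 (0.25 adjusted over both), the smallest that 4 experiments can give. Within slide 2 (4 arrays with 1) the value was 0.20, and slide 1 holds no Th2_IL33 array. The upper ends of the intervals leave room for an IL-33 difference of up to 0.62 in medium-grown and 0.64 in Th2-grown cells. The interaction subtracts the IL-33 difference of medium-grown cells from that of Th2-grown cells, and it was 0.02 ± 0.23 SE (95% interval -0.48 to 0.51, limma adjusted p = 0.995), and 0% of tested miRNAs passed it (5 had an unadjusted p under 0.05). That interval does not show that the responses are alike.

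Both probes gave the same picture of the Th2 difference. Their sequences are the same in all but the last base of A_54_P1310, so they read the same strand. A_54_P1309 gave 14.9% to 19.1% of the summed signal, so the sum mostly follows A_54_P1310. The log2 difference between Th2 and Media was 0.68 ± 0.19 SE for A_54_P1309 and 0.68 ± 0.16 for A_54_P1310, and with IL-33 it was 0.65 ± 0.19 and 0.70 ± 0.16. By experiment they were less alike. In experiment 4 without IL-33 the log2 difference was 0.018 for A_54_P1309 and 0.46 for A_54_P1310, and in experiment 3 with IL-33 it was 0.090 and 0.39. The probe relative signals of A_54_P1309 were 0.131 to 0.250 in Media and 0.253 to 0.309 in Th2, a narrow gap between the groups. Those of A_54_P1310 were 0.600 to 1.06 and 1.14 to 1.45. For IL-33 in Th2-grown cells A_54_P1310 was higher in 4 of 4 experiments and A_54_P1309 in 2 of 4. Across the 16 arrays the log2 signals of the probes correlated with r = 0.948, and with r = 0.832 for the deviations from the group means. These points share the array and its scaling.

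**Figure D3:**
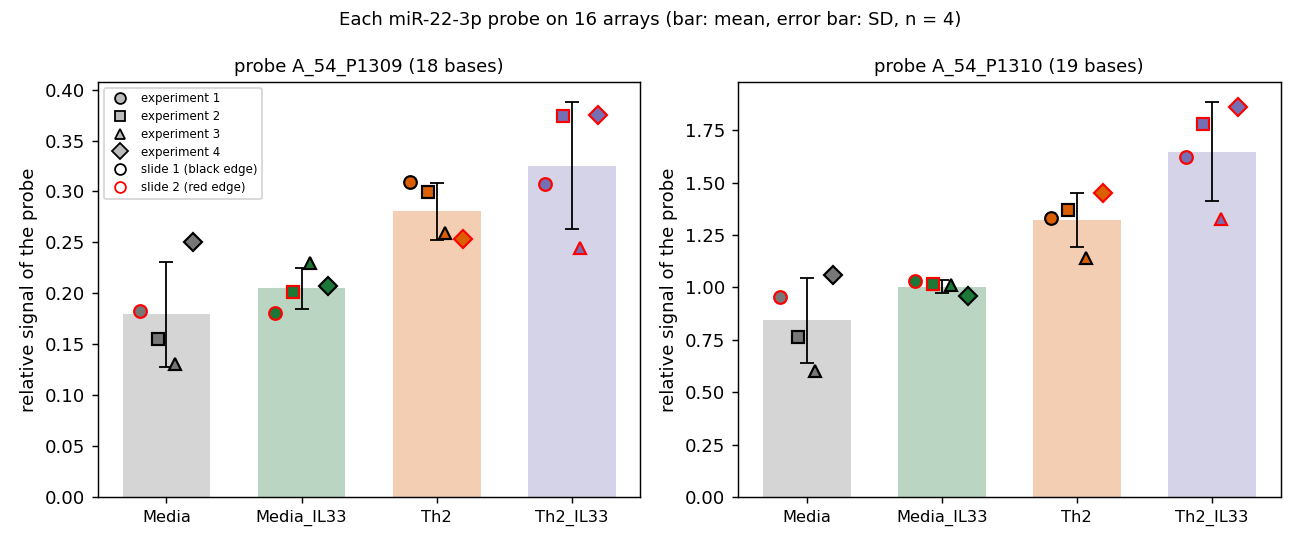
Relative signal of each miR-22-3p probe (y axes, on separate scales) in the 4 groups (x axis), with points, edge colours, bars and error bars as in the plot of the summed signal. The left panel has 1 Media array at 0.250 just under the lowest Th2 array at 0.253, and the right panel has a wider gap, from 1.06 to 1.14.

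The other arm of the hairpin, miR-22-5p, was near background. Its probes had at most 2 of 20 spots well above background on any array, so no fold is given and it was not tested. The scanner software called it detected on 2 of 16 arrays, Th2_IL33 2 and 3. Its summed intensity was 0.744 to 10.69 units in Media, 11.5 to 16.8 in Th2, 12.5 to 14.8 in Media_IL33 and 17.5 to 26.1 in Th2_IL33. The Th2_IL33 arrays were the highest of the 16, and these signals lie at the limit of what the scanner separates from background.

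Within 1 Mb of Mir22 the RefSeq table holds 4 other miRNA hairpins with 7 mature strands, of which 5 were on the array and 1 was tested. That one was miR-212-3p, from the Mir212 and Mir132 pair about 290 kb away on the same strand. miR-212 and miR-132 share a seed family and are known for induction by CREB. The relative signal of miR-212-3p was 0.771 ± 0.206 (SD, n = 4) in Media, 0.794 ± 0.173 in Th2, 0.812 ± 0.117 in Media_IL33 and 0.914 ± 0.0838 in Th2_IL33. Its log2 difference was 0.064 ± 0.21 SE for Th2 with Media (limma adjusted p = 0.922) and 0.18 ± 0.21 with IL-33 (limma adjusted p = 0.585), where miR-22-3p had 0.68 and 0.69. The difference between these miRNAs was not tested. miR-212-5p, both strands of miR-132 and miR-3971 were detected on 0 of 16 arrays.

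The miRNAs with the pattern most like that of miR-22-3p were sought by the Pearson correlation of log2 relative signal over the 16 arrays. Among the 230 other tested miRNAs the median correlation was 0.346. The 6 highest were miR-21a-5p (0.916), a bright and widely induced miRNA, let-7c-5p (0.899), the p53-responsive miR-34a-5p (0.895), miR-146b-5p (0.895), miR-30d-5p (0.894) and miR-99a-5p (0.890). These 6 had Th2 differences of 0.38 (miR-30d-5p) to 1.47 (miR-146b-5p) on the log2 scale, and 0.43 to 1.14 with IL-33. No p is given for these Th2 differences, since the 6 were picked by likeness, over the same arrays, to a miRNA chosen on that difference. miR-21a-5p was at 11.1 ± 3.92 in Media and 18.7 ± 4.07 in Th2 (log2 difference 0.80 ± 0.23 SE). That log2 difference was smaller without 3 arrays (0.58 ± 0.24) and without all 4 (0.20 ± 0.27). The IL-33 differences of miR-21a-5p were 0.59 in medium-grown and 0.40 in Th2-grown cells, neither past the threshold. Those of let-7c-5p, miR-34a-5p, miR-30d-5p and miR-99a-5p were 0.011 to 0.093. Without 3 arrays, the correlations of the 6 over the remaining 13 were 0.805 to 0.909, and the order differed. miR-34a-5p was then the highest, while miR-99a-5p, miR-30d-5p and miR-146b-5p left the top 6 and ranked 8, 12 and 18.

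Correlation of the deviations from the group means gave other names, led by miR-331-3p (0.902), miR-652-5p (0.855) and miR-125a-5p (0.849). The median over all 230 was 0.481, and over 13 arrays these 3 had 0.812, 0.714 and 0.712 against a median of 0.217. The order differed over 13 arrays, where miR-362-5p (0.836) and miR-128-3p (0.819) lay above miR-331-3p. Others, such as miR-1894-3p (0.796), lay above miR-652-5p and miR-125a-5p. miR-331-3p had group means of 0.0497 to 0.0631, near the floor of 0.0353 set for low values. It was detected on 14 of 16 arrays and was at the floor on Media 3. miR-125a-5p, made from a cluster with miR-99b and let-7e, had a Th2 difference of -0.07, so its likeness to miR-22-3p lay within the groups and not between them. Arrays share RNA input, labelling and scaling in all these values, and the correlations are descriptions.

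**Figure D4:**
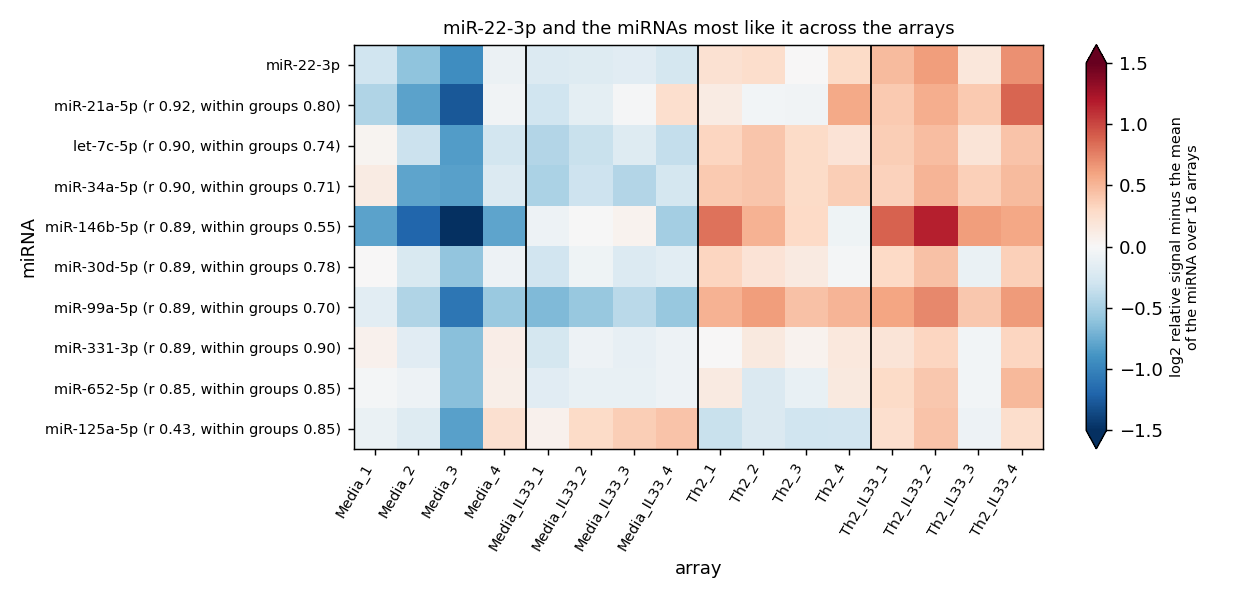
Log2 relative signal minus the mean of each miRNA over the 16 arrays (colour, truncated at -1.5 and 1.5) for miR-22-3p and the 9 miRNAs most like it (rows), with arrays as columns and lines between groups. Media 3 is the lowest array in all 10 rows, and miR-125a-5p does not share the step from medium-grown to Th2-grown arrays.

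Of 10 miRNAs associated with alternative activation, 8 were tested. In each Th2 comparison 6 of 8 passed as higher and 0 as lower (median log2 difference 1.11 in both). Of all tested miRNAs 8.66% passed as higher and 0.866% as lower without IL-33, and 8.23% and 1.3% with it. Both counts were 6 as well without 3 arrays, and 5 and 6 without all 4, where miR-223-3p did not pass in Th2 with Media. miR-511-3p, whose hairpin lies within Mrc1, the gene of the mannose receptor, was at 0.234 ± 0.0133 in Th2 and at the floor of 0.0353 on every Media array, at least 4.45-fold higher. The medians keep their values with miR-511-3p set at that bound. miR-378a-3p, from the gene of the coactivator PGC-1beta, was at 0.330 ± 0.0492 with 0.158 ± 0.0280, and the myeloid miR-223-3p at 0.980 ± 0.264 with 0.444 ± 0.116. let-7c-5p was at 7.16 ± 0.449 with 4.65 ± 1.12, a log2 difference of 0.65 that is close to the 0.68 of miR-22-3p. None of the 8 passed with IL-33 in either growth condition. These lists were drawn up with earlier results of these data known, so their counts are no independent evidence.

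The inflammatory list gives IL-33 differences that those of miR-22-3p can be set beside. Like the p53 list below, it was drawn up with earlier results of these data known, so its counts are no independent evidence. Of 7 members 4 were tested, and 4 of 4 rose with IL-33 in medium-grown cells and 3 of 4 in Th2-grown cells (medians 1.12 and 1.17), where 1.73% of all tested miRNAs passed in each. In medium-grown cells 2 of 4 passed without 3 arrays (miR-146a-5p and miR-21a-3p) and 1 of 4 without all 4 (miR-146a-5p), and in Th2-grown cells 3 of 4 passed in both. miR-146a-5p, a brake on NF-kB signalling, was detected on all arrays of both medium-grown groups and rose by a log2 difference of 1.08 (limma adjusted p = 0.000804). The fitted differences of miR-155-5p (1.17), miR-146b-5p (0.95) and miR-21a-3p (1.93) had limma adjusted p of 0.00190, 0.0319 and 0.000252. The scanner software called these 3 detected on 2, 3 and 2 of the 4 Media arrays. Their Media means (0.0413, 0.0495 and 0.0562) lay near the floor of 0.0353, so their sizes depend on the floor. Without 3 arrays miR-155-5p was at 0.98 (limma adjusted p = 0.0629) and miR-146b-5p at 0.86 (limma adjusted p = 0.108). In Th2-grown cells miR-155-5p rose at least 2.79-fold (limma adjusted p = 2.38e-05), while miR-146b-5p did not pass (0.42, limma adjusted p = 1). Of 8 miRNAs of the p53 pathway 2 were tested, and miR-34a-5p passed in both Th2 comparisons (log2 differences 0.79 and 0.80) while miR-107-3p did not (0.18 in both). Neither passed with IL-33.

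**Figure D5:**
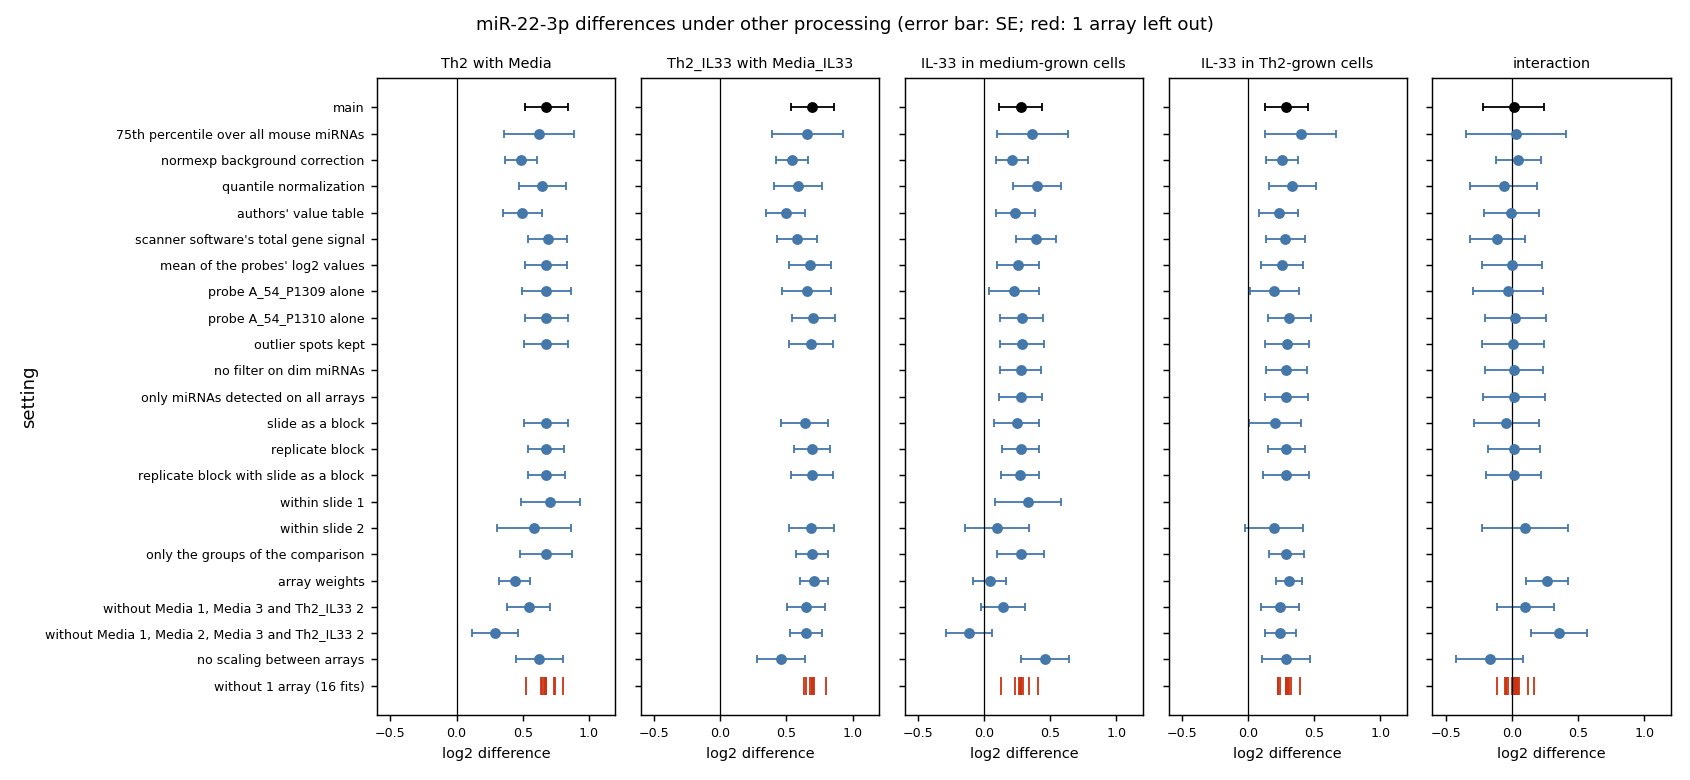
Log2 differences of miR-22-3p (x axes) in 5 comparisons (panels) under each processing setting (y axis), with SE as error bars and red ticks for fits without 1 array. Both Th2 differences stay above 0 in every setting drawn, from 0.29 to 0.81 without IL-33 and from 0.46 to 0.80 with it, and the interaction lies on both sides of 0, from -0.17 to 0.36.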

How the data were processed

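Total RNA of 16 cultures was hybridised to 1-colour (Cy3) Agilent miRNA arrays, 1 per sample. Agilent Feature Extraction 10.7.3.1 made the deposited scanner files, per the file headers. Their spot intensities are, per the file headers, background-subtracted and spatially detrended, with no normalization between arrays. The authors' value table holds linear intensities, quantile normalized as judged from their equal medians and maxima, and the submitters' processing notes list Partek 6.6 and RMA.

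Here outlier and control spots were left out, spots were averaged and probes summed, and the sum was divided by the array's 75th percentile (taken over the 178 miRNAs that every array detected). Values were floored at 0.0353, the 1st percentile of detected signals, before log2. limma 3.58.1 (R 4.3.3, with the package data.table in version 1.17.8) fitted 1 mean per group to all 16 arrays and the 231 miRNAs detected on all 4 arrays of a group, with Benjamini-Hochberg adjustment and a threshold of 0.05. The fit was tested on simulated data.

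The members and lists were chosen with earlier results of these data known. Named miRNAs were miR-22-3p, its other arm, the 6 and 3 miRNAs most like it over arrays and within groups, and the first 4 tested members of each list. A further list is not reported here. Replicate numbers mark the 4 experiments: per the labels, arrays of the same number carry the same experiment letter. Over 24 same-numbered pairs of arrays, deviations from the group means had a median correlation of 0.112 (-0.694 to 0.728), against -0.048 for other pairs. The number of arrays limits the precision. Alternatives covered scaling, background correction, normalization, the summary of probes, filters, blocks, weights and single arrays. Sequences and positions are from RefSeq (GRCm38.p6), where 1031 of 1247 array names matched.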

Additional observations from a re-analysis of the deposited data

How the results depend on the processing

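The Th2 difference of miR-22-3p kept its direction in all 35 alternatives without IL-33 (log2 0.29 to 0.81) and all 34 with it (0.46 to 0.80). That direction is the one miR-22-3p was chosen on, and not every alternative could move the value. Without IL-33, leaving out a Media_IL33 or Th2_IL33 array, adding a block or fitting only the groups of the comparison returned the same 0.68. The main fit shares 1 spread over groups whose own SDs differed. With only the groups of the comparison, the SE of 0.16 became 0.20 for Th2 with Media and 0.12 for Th2_IL33 with Media_IL33. For IL-33 it became 0.18 in medium-grown and 0.13 in Th2-grown cells. Beyond 1 SD of the replicates the Th2 difference moved with IL-33 in the authors' value table (0.50) and with no scaling between arrays (0.46). Without IL-33 it moved beyond 1 SD without Media 1, 2 and 3 and Th2_IL33 2 (0.29), and was 0.44 with array weights. IL-33 passed in none of 39 alternatives in medium-grown cells (-0.11, without those 4 arrays, to 0.46, smallest limma or exact adjusted p 0.257) and none of 38 in Th2-grown cells (0.20 to 0.40, smallest 0.140). The interaction did not pass in any of its 35 (-0.17 to 0.36), and its sign turned with quantile normalization (-0.062), the authors' value table (-0.0029), the scanner software's total gene signal (-0.11), the mean of the probes' log2 values (-0.00024), A_54_P1309 alone (-0.027), slide as a block (-0.042) and no scaling (-0.17). Without 1 array each, the ranges were 0.53 to 0.81, 0.63 to 0.80, 0.12 to 0.40, 0.23 to 0.40 and -0.11 to 0.17 for the 5 comparisons in the order of the plot of settings.

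A replicate block for the paired experiments cannot move the log2 differences, since each experiment holds 1 array per group. They were 0.68, 0.69, 0.27, 0.29 and 0.02. The SE was 0.14 in place of 0.16 for the differences between groups, and 0.20 in place of 0.23 for the interaction. The block changed no call (limma adjusted p of 0.898, 0.939 and 0.995 for the last 3). The sign-flip test within experiments had adjusted p of 0.375 and 0.25. That test, both removals of arrays that stand apart and the fit with no scaling were chosen after seeing the data. Without the filter on dim miRNAs most residual variances are exactly 0, as limma warned, so the adjusted p of that fit is unreliable. Over the settings the miRNAs past the threshold numbered 4 to 64 (22 as reported) for Th2 with Media, 12 to 71 (22) with IL-33, 0 to 5 (4) and 0 to 6 (4) for IL-33, and 0 to 1 (0) for the interaction, with 64, 71, 6 and 1 under array weights.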

Other observations

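The spread of miR-22-3p differed between groups. The SD of its log2 relative signal was 0.37 in Media, 0.13 in Th2, 0.038 in Media_IL33 and 0.23 in Th2_IL33 (n = 4 each). In Media it lay near the median SD of all 231 tested miRNAs (0.35), as it did in Th2 (0.15) and Th2_IL33 (0.22). In Media_IL33 it was far under the median (0.18), and only 3.46% of the tested miRNAs had a smaller one. That narrow spread varied with the scale and the probe. In Media_IL33 the coefficient of variation was 2.63% for the relative signal, 5.58% before scaling and 5.49% in the authors' value table. By probe it was 9.98% for A_54_P1309 and 3.13% for A_54_P1310.

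Before scaling, the summed intensity of miR-22-3p was 392 to 740 units in Media, 776 to 889 in Th2, 703 to 792 in Media_IL33 and 892 to 1230 in Th2_IL33. On this scale the medium-grown and Th2-grown groups without IL-33 did not overlap, nor did those with it, whereas Media_IL33 and Th2 overlapped. The share of all tested miRNAs without overlap was not computed on this scale. Nothing is read from the gap, since miR-22-3p was chosen on the Th2 difference. The largest single intensity was that of Th2_IL33 2, 1 of the arrays that stand apart, whereas after scaling Th2_IL33 4 was the highest.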
